A study of Mus musculus with 12 samples.

Results

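Corticosteroid hormones act in the brain through a pair of ligand-activated transcription factors, and 10 genes of this system were followed in auditory cortex of acute brain slices. They are the receptor genes Nr3c1 and Nr3c2, 6 genes widely used as glucocorticoid receptor targets (Sgk1, Fkbp5, Tsc22d3, Klf9, Zbtb16 and Hif3a), and the metallothionein genes Mt1 and Mt2. The genes were taken by symbol from the 20989 loci for which expression was deposited, and each symbol had 1 locus. Brains came from 6 mice of strain C57bl6/J at 4 weeks of age, and coronal slices of 350 µm recovered for 15 min, were cut along the midline and rested for 45 min in aCSF, an artificial cerebrospinal fluid. The groups are thus the separated sides of the same brains, with a bath of 1 h that was either plain aCSF (control, n = 6) or aCSF with the cocktail (cocktail, n = 6). The cocktail held 50 µM bicuculline methiodide, a GABA-A receptor blocker, with 100 µM norepinephrine, 50 µM of the acetylcholine analogue carbamoylcholine, 100 µM dopamine, 40 µM ascorbic acid and 100 µM serotonin. The study's methods describe a later resting step in aCSF that the sample labels leave out. No corticosteroid is listed among the additions, and the comparison asks which of these genes changed with the cocktail.

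Corticosterone, the main glucocorticoid of the mouse, binds both receptors. The glucocorticoid receptor, encoded by Nr3c1, rests in the cytoplasm in a complex with Hsp90 and immunophilins, moves to the nucleus when it binds hormone and acts there on glucocorticoid response elements. The mineralocorticoid receptor, encoded by Nr3c2, has a higher affinity for corticosterone and is known for its strong expression in the hippocampus. Metallothioneins are small cysteine-rich proteins that bind zinc and copper, and their genes respond to metals through the factor MTF-1 and to glucocorticoids.

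Values are FPKM, fragment numbers corrected for transcript length and library size, so levels of different genes can be compared per length. Changes are log2 differences of FPKM + 1, cocktail minus control, fitted with limma with the mouse as a block over the 12032 loci with a mean of at least 1 FPKM, and p-values are adjusted by the Benjamini-Hochberg method over all of these loci. All 10 genes passed that filter. The reads behind the values, recovered from the interval given with each FPKM, summed to 10601067 to 19768881 per control library and to 13544297 to 17643462 per cocktail library. The library of the control hemisphere of mouse 1 stood apart, with a chi-square distance of 27.6 to 37.0 per gene to the other control libraries, against 7.1 to 15.8 among those. Pairs of cocktail libraries lay 8.27 to 25.4 apart. The distance grows with the number of reads, and that control library held the most, 19768881. The part of depth in its distance was not tested. That library also had the lowest summed FPKM, 290155. Scaling by the median of ratios gave it a factor of 0.9052, against at least 0.9808 for the other libraries. The main fit used FPKM without this scaling, and its part in the ratios of mouse 1 was not tested. At an adjusted p under 0.05, 180 loci differed between cocktail and control (1.5% of those tested), 147 of them higher (1.22%) and 33 lower (0.274%) in the cocktail. In bulk tissue, fewer cells of a type and less RNA per cell cannot be told apart.

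Sgk1 rose in the cocktail hemisphere, and none of the other 9 genes was called. This is 1 of 10 genes in a background of 1.5%. The median log2 fold change of the 10 was 0.049, against 0.0076 over all loci tested, and 9 of the 10 had a positive value, against 54.4% of all loci. The gene that rose (chr10:21882184-21999902 in mm10, plus strand) encodes serum- and glucocorticoid-regulated kinase 1, a protein kinase that acts on ion channels and transporters.

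In control hemispheres Sgk1 measured 34.9, 46.3, 39.2, 39.5, 52.2 and 49.9 FPKM in mice 1 to 6, and in the matching cocktail hemispheres 63.7, 64.5, 54.8, 59.5, 68.2 and 63.6 FPKM. Every cocktail library lay above every control library, which held for 0.715% of the loci tested (0.914% with no overlap in either direction). The cocktail hemisphere was higher in 6 of 6 mice, which held for 3.64% of loci. The means were 43.7 ± 6.83 FPKM in control and 62.4 ± 4.64 FPKM in cocktail (SD, n = 6), and each value rested on 1293 to 2599 reads. The log2 fold change was 0.52 (SE 0.0629, limma adjusted p = 0.000841), a 1.43-fold rise with a 95% interval of 1.3 to 1.57. The exact two-sided sign-flip permutation test gave p = 0.03125, the smallest that 6 mice allow. The ratio of the hemispheres ran from 1.27 in mouse 6 to 1.83 in mouse 1, the mouse whose control library stood apart, and the log2 fold change without mouse 1 was 0.449 (limma adjusted p = 0.000264). The summed level of 8 oligodendrocyte markers was 2090 to 2650 FPKM in control and 2380 to 2740 FPKM in cocktail, higher in 5 of 6 mice, with none of the 8 called, and that of 9 astrocyte markers was 669 to 853 and 797 to 842 FPKM, also higher in 5 mice with none called. That of 8 inhibitory neuron markers was 491 to 552 and 522 to 569 FPKM, higher in 5 of 6 mice, and that of 8 excitatory neuron markers 1370 to 1510 and 1290 to 1480 FPKM, higher in 2 of 6, again with none called. The part of these levels in the Sgk1 difference was not tested.

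**Figure D1:**
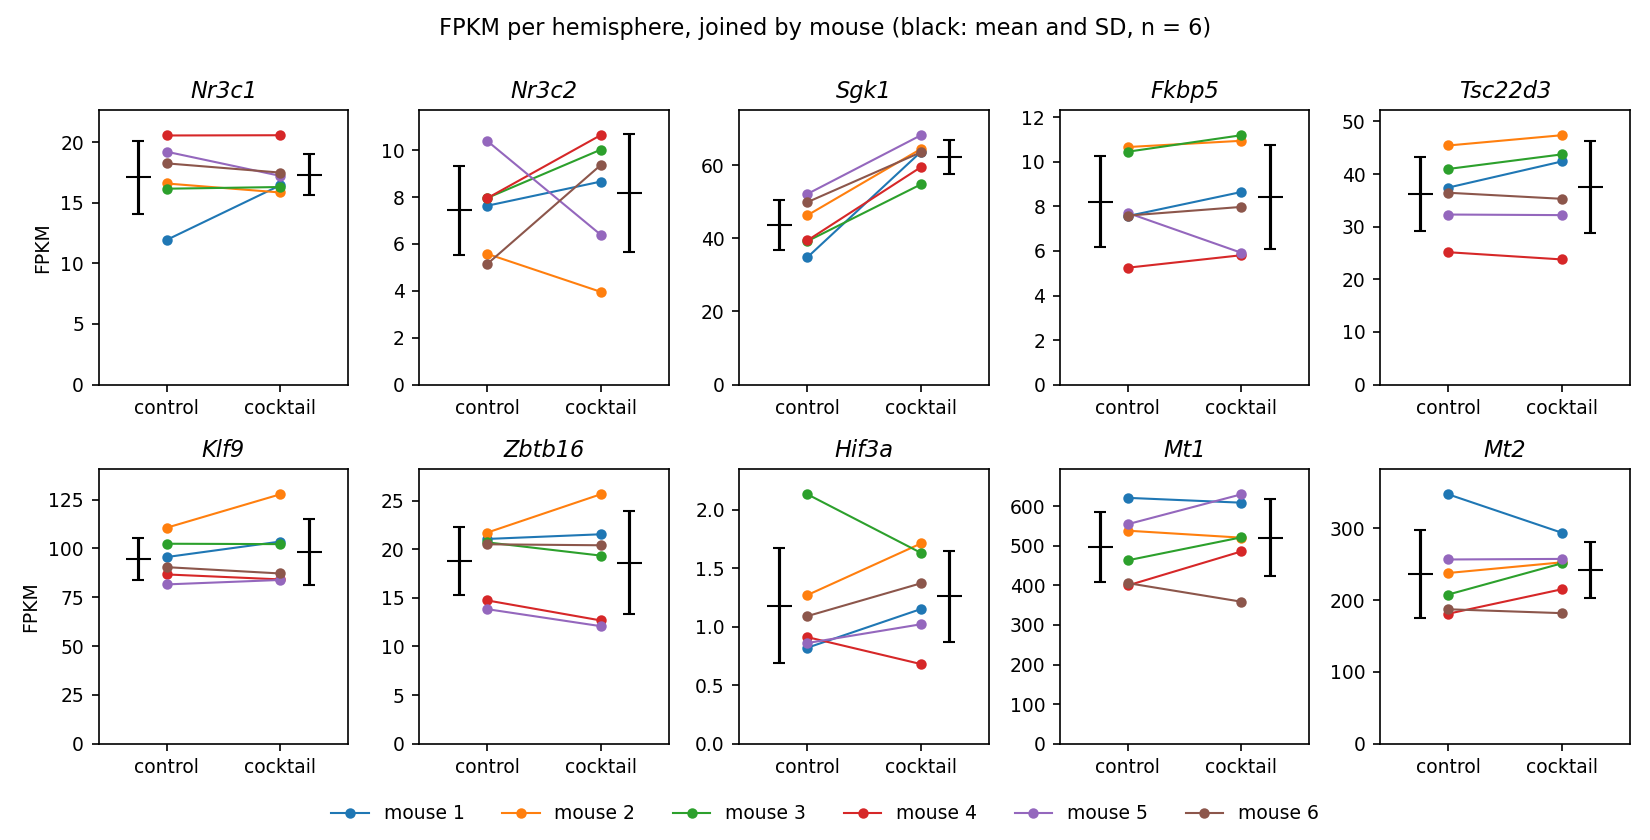
FPKM of the 10 genes in each hemisphere, with control on the left and cocktail on the right of each panel, lines joining the hemispheres of a mouse, and black bars for the mean and SD of 6 libraries. The vertical axes start at 0 and differ between genes. In the Sgk1 panel all 6 lines climb from 34.9 to 52.2 FPKM up to 54.8 to 68.2 FPKM, and in the other panels the control and cocktail ranges overlap.

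Within mice, the log2 difference of Sgk1 was larger than that of the other gene in 6 of 6 mice for 8 of the 9 other genes, by a mean of 0.45 to 0.55. Against Nr3c2 it was larger in 5 of 6 mice, by a mean of 0.42 ± 0.533 (SD, n = 6). Sgk1 was singled out for its call, so these values are a description.

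The loci whose pattern over the 12 libraries was most like that of Sgk1, once each mouse's mean was subtracted, were Spry2 (r = 0.995), Btg2 (r = 0.993) and Otud1 (r = 0.991). Spry2, a feedback inhibitor of receptor tyrosine kinase signaling, rose from 32.2 to 47.8 FPKM (log2 fold change 0.56, limma adjusted p = 0.00108). Btg2, an antiproliferative gene of the immediate early class, rose from 32.2 to 66.4 FPKM (1.07, adjusted p = 3.86e-05), and Otud1, a deubiquitinase, rose from 16.2 to 26.9 FPKM (0.71, adjusted p = 0.00171). These points share libraries and the difference between control and cocktail, so the correlations are descriptions.

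Sgk1 has several annotated starts, which are summed in its FPKM and cannot be told apart here. The 250 bases upstream of the starts in RefSeq (build GRCm38.p6, the coordinates of mm10) were searched on both strands for a glucocorticoid response element, spelled AGAACA and TGTTCT with 3 bases of any kind between them, and for its single arm AGAACA. Of the 10 genes, 8 had an entry, with 15 windows in all. The full element occurred in 1 of the 15, upstream of 1 of the 6 Sgk1 starts. Of all 32851 promoter windows of this length 3 held it, or 0.00913%. The single arm was in 16.1% of all windows. It was in 3 of the Sgk1 windows, and in 1 Tsc22d3 window at chrX:140600523-140600772 on the minus strand. That Tsc22d3 window overlaps an annotated exon of Tsc22d3. The window with the full element is shown beside that of the next Sgk1 start downstream, with arms on either strand in capitals. The first lies at chr10:21993640-21993889 and the second at chr10:21994416-21994665, both on the plus strand and outside annotated exons.
Sgk1, window with the element: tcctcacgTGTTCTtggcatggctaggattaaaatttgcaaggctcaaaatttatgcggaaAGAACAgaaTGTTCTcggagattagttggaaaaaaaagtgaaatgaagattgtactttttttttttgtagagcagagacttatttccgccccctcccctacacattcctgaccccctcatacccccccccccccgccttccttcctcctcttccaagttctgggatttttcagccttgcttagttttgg
Sgk1, next start: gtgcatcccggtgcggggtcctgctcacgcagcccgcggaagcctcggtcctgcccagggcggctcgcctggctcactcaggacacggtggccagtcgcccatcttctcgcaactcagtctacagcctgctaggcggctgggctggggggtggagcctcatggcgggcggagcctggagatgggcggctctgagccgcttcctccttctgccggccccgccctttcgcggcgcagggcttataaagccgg
A match of letters is a description and does not show that a factor was bound. The windows of Fkbp5, Klf9, Hif3a, Nr3c2, Mt1 and Mt2 held neither the full glucocorticoid response element nor its single arm, which says nothing of elements farther away. Zbtb16 and Nr3c1 are named only.

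The receptor genes were expressed at different levels and neither was called. Nr3c1 (chr18:39410545-39487245 in mm10, minus strand) measured 17.1 ± 3.01 FPKM in control and 17.3 ± 1.71 FPKM in cocktail (SD, n = 6). Its libraries read 11.9, 16.6, 16.2, 20.5, 19.2 and 18.2 FPKM in control mice 1 to 6 and 16.4, 15.8, 16.3, 20.6, 17.2 and 17.5 FPKM in their cocktail hemispheres. The control and cocktail ranges overlapped, and the widest gap between the hemispheres of a mouse was in mouse 1, where the control library held the lowest value of all. The log2 fold change was 0.03 (95% interval -0.123 to 0.181, limma adjusted p = 0.956), and it was -0.051 without mouse 1.

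Nr3c2 had the widest spread of within-mouse differences (SD 0.516 on the log2 scale, n = 6). It measured 7.63, 5.58, 7.96, 7.95, 10.4 and 5.14 FPKM in control mice 1 to 6 and 8.66, 3.96, 10.02, 10.6, 6.4 and 9.36 FPKM in cocktail. The cocktail hemisphere was higher in 4 mice and lower in mice 2 and 5, with ratios from 0.615 in mouse 5 to 1.82 in mouse 6. The log2 fold change was 0.09 (95% interval -0.225 to 0.413, adjusted p = 0.923), the widest interval of the 10 genes, and it was -0.038 without mouse 6. Exons of Nr3c2 (chr8:76902508-77243639, plus strand) overlap those of Gm10649 on the opposite strand, and the strand setting of the FPKM step is not given in the sources used here.

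The direction of Nr3c2 between hemispheres went with that of some hippocampal markers but not of all. This comparison was made after the values were seen and is given without a test. Whether each marker is confined to hippocampus was not tested. The summed level of 6 such markers was 48.7 to 59.5 FPKM in control and 44.9 to 68.5 FPKM in cocktail, with none of the 5 tested called, and Iyd, the other one, was at most 0.174 FPKM. The hemisphere with the higher sum also had more Nr3c2 in 6 of 6 mice, with or without Spink8 in the sum. Wfs1 made up most of that sum, with means of 32.9 FPKM in control and 33.0 FPKM in cocktail. The result of the sum is therefore not separate from that of Wfs1. Of the single markers, Wfs1 and Zbtb20 shared the direction of Nr3c2 in 6 mice, Prox1 and Spink8 in 5, Iyd in 4 and Grik4 in 3. How many of all loci did so is not given here, so these counts are descriptions.

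Spink8, known from hippocampal CA1 neurons, is shown by library because it ranged from under 1 FPKM to 7.67 FPKM. It measured 6.37, 2.44, 3.26, 2.52, 7.67 and 0.778 FPKM in control mice 1 to 6 and 3.84, 0.949, 5.6, 5.46, 2.47 and 4.23 FPKM in cocktail. The exception to the shared direction was mouse 1, with less Spink8 and more Nr3c2 in the cocktail hemisphere. The part of hippocampal tissue in the Nr3c2 values was not tested.

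**Figure D2:**
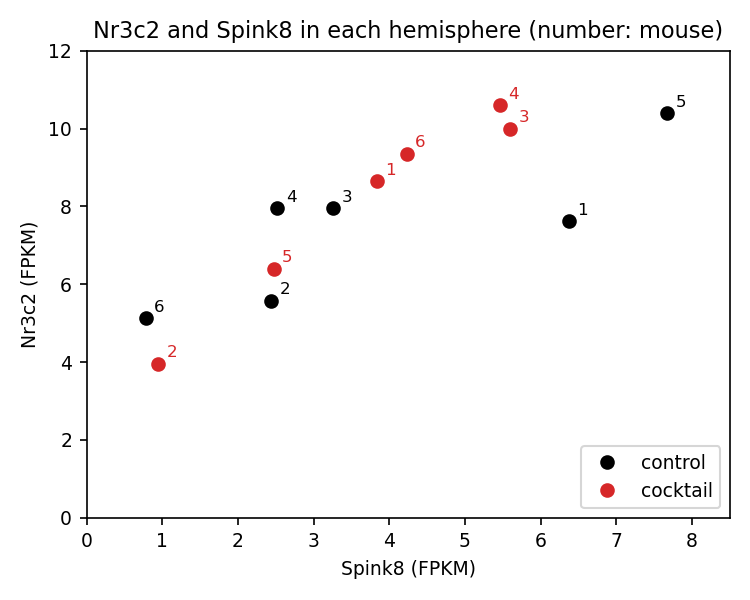
Nr3c2 (vertical axis, FPKM) against Spink8 (horizontal axis, FPKM) in the 12 libraries, control in black and cocktail in red, each point with its mouse number. Libraries with under 1 FPKM of Spink8 (control of mouse 6 and cocktail of mouse 2) had 5.14 and 3.96 FPKM of Nr3c2, and the control library of mouse 5, highest in Spink8 at 7.67 FPKM, had 10.4 FPKM.

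Nr3c1 exceeded Nr3c2 in all 12 libraries, by 1.56 to 4.0 times. The log2 ratio of the receptors was 1.22 ± 0.447 in control and 1.15 ± 0.481 in cocktail (SD, n = 6), higher in 3 mice and lower in 3. The mean within-mouse difference of -0.069 gave p = 0.812 in the exact two-sided sign-flip test, and it was 0.002 on the recovered reads and between -0.191 and 0.102 when each mouse was left out, so its sign was not stable.

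None of the other 5 target genes was called. Fkbp5, a co-chaperone that lowers the affinity of the glucocorticoid receptor for hormone, measured 8.21 ± 2.05 FPKM in control and 8.42 ± 2.34 FPKM in cocktail (log2 fold change 0.03, 95% interval -0.121 to 0.173, limma adjusted p = 0.96). Tsc22d3, which encodes the glucocorticoid-induced leucine zipper, measured 36.3 ± 7.02 and 37.5 ± 8.74 FPKM (0.03, -0.07 to 0.136, adjusted p = 0.919). Klf9, a zinc finger transcription factor, measured 94.5 ± 10.7 and 98.1 ± 17.0 FPKM (0.04, -0.059 to 0.146, adjusted p = 0.887). The upper bounds of these intervals are 1.13-fold for Fkbp5, 1.1-fold for Tsc22d3 and 1.11-fold for Klf9, below the lower bound of 1.3-fold for Sgk1. Fkbp5 lies at chr17:28398753-28486149 and Tsc22d3 at chrX:140539529-140600522, both on the minus strand, and Klf9 at chr19:23141226-23166911 on the plus strand.

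Zbtb16 (chr9:48654297-48835945, minus strand), a BTB zinc finger repressor, was the 1 gene of the 10 with a negative fold change, at 18.8 ± 3.5 FPKM in control and 18.6 ± 5.28 FPKM in cocktail (log2 fold change -0.04, 95% interval -0.169 to 0.095, adjusted p = 0.928). Hif3a (chr7:17030993-17062427, minus strand), an alpha subunit of the hypoxia-inducible factors, was the lowest of the 10, at 1.18 ± 0.494 and 1.26 ± 0.388 FPKM (0.06, -0.119 to 0.238, adjusted p = 0.914), and rested on 48 to 182 reads per library. At that level the pseudocount of 1 shrinks a fold change, and the log2 fold change of Hif3a was 0.02 to 0.122 over 15 alternatives with no call.

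**Figure D3:**
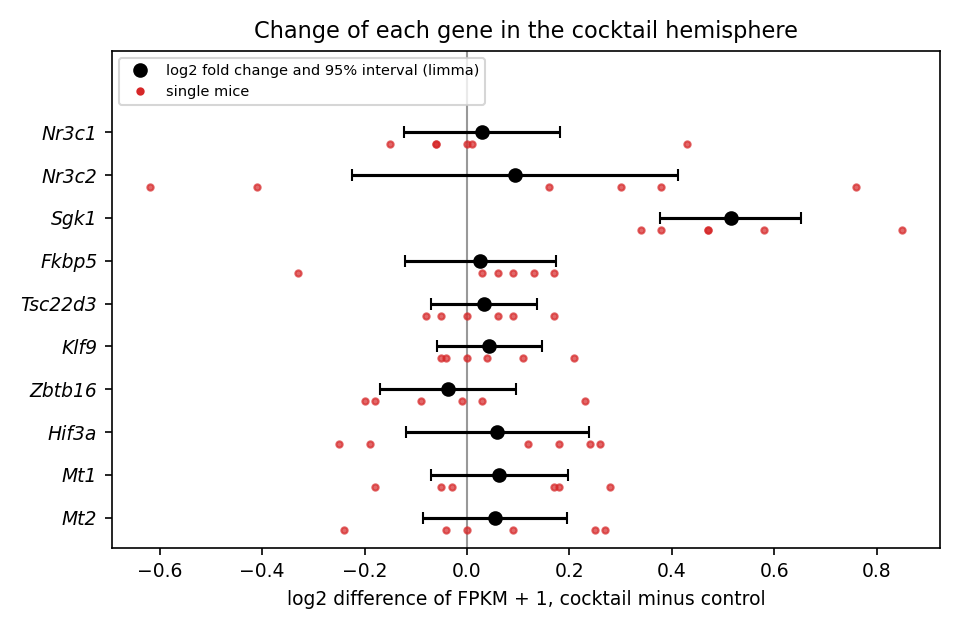
Log2 difference of FPKM + 1, cocktail minus control, for the 10 genes, with the limma estimate and its 95% interval in black and the 6 single mice in red below it. The interval of Sgk1, 0.378 to 0.653, lies above those of all other genes except Nr3c2, whose interval reaches from -0.225 to 0.413.

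The metallothionein genes were the most abundant of the 10 and neither was called. Mt1 measured 497 ± 88.7 FPKM in control and 521 ± 97.2 FPKM in cocktail (SD, n = 6), and its mean over all libraries was above that of 99.7% of the loci tested. The log2 fold change of Mt1 was 0.06 (95% interval -0.07 to 0.197, limma adjusted p = 0.88), higher in 3 of 6 mice. Mt2 measured 236 ± 61.6 and 242 ± 38.6 FPKM, with a log2 fold change of 0.05 (-0.086 to 0.195, adjusted p = 0.893), higher in 4 of 6 mice. The genes lie 5521 bases apart on the plus strand, Mt2 at chr8:94172618-94173567 and Mt1 at chr8:94179089-94180327, and exons of Mt2 overlap those of an antisense transcript, Gm45774.

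The ratio of Mt1 to Mt2 ran from 1.79 to 2.45 across the 12 libraries. The log2 ratio was 1.09 ± 0.126 in control and 1.1 ± 0.114 in cocktail. The mean within-mouse difference was 0.008 (SD 0.158, exact two-sided sign-flip p = 0.906). Its sign turned on the recovered reads (-0.061) and when mouse 1 (-0.032) or mouse 5 (-0.026) was left out. The metal response element core, spelled TGCACNC or TGCGCNC, occurred 3 times in the 250 bases before the Mt2 start and once before that of Mt1. The Mt2 window overlaps an annotated exon of Gm45774, and the Mt1 window overlaps an annotated exon of Mt1 itself. The counts hold for these spellings and windows only and say nothing of elements elsewhere. At least 1 match was found in 21.4% of all promoter windows and at least 3 in 1.26%.

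In control hemispheres the genes ranked, by mean FPKM, Mt1, Mt2, Klf9, Sgk1, Tsc22d3, Zbtb16, Nr3c1, Fkbp5, Nr3c2 and Hif3a. Of the neighbours in that order, Sgk1 and Tsc22d3, Zbtb16 and Nr3c1, and Fkbp5 and Nr3c2 overlapped in their libraries, with the first of each pair higher in 4, 4 and 3 of 6 libraries. The other neighbours did not overlap. Over all 12 libraries the mean level of Hif3a was above that of 2.39% of the loci tested, those of Nr3c2 and Fkbp5 above 41.9% and 43.7%, and that of Klf9 above 95.1%.

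Several of the 10 genes differed from mouse to mouse in the same way in both hemispheres. Tsc22d3 was highest in mice 2 and 3 and lowest in mouse 4 in both hemispheres. It read 37.4, 45.4, 41.0, 25.1, 32.3 and 36.5 FPKM in control mice 1 to 6, and 42.4, 47.4, 43.7, 23.8, 32.2 and 35.3 FPKM in cocktail. Control and cocktail hemispheres thus put the 6 mice in the same order (Pearson r = 0.98, exact permutation p = 0.00139, adjusted 0.0139 over the 10 genes, and Spearman rho = 1.0, p = 0.00278, adjusted 0.0278), and r was 0.91 without mice 2 and 4, the farthest from the median. An r at least this high occurred at 0.249% of the loci tested.

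Zbtb16 and Klf9 also kept much of their order of mice across the hemispheres. The mouse means of Zbtb16 ran from 13.0 FPKM in mouse 5 to 23.7 FPKM in mouse 2 (r = 0.97 and rho = 0.94 between hemispheres, exact permutation adjusted p = 0.0139 and 0.0417, r = 0.94 without mice 4 and 5). Those of Klf9 ran from 82.7 FPKM in mouse 5 to 119 FPKM in mouse 2 (r = 0.94 and rho = 0.94, exact adjusted p = 0.0139 and 0.0417, r = 0.89 without mice 2 and 5). Fkbp5 ranged from 5.53 FPKM in mouse 4 to 10.8 FPKM in mouse 3, with r = 0.87 and an exact permutation p of 0.0486 that became 0.081 after adjustment (rho = 0.71, adjusted p = 0.17, r = 0.76 without mice 2 and 4). For Hif3a r was 0.68 and rho 0.71 (exact permutation adjusted p = 0.2 and 0.17, r = 0.39 without mice 2 and 3).

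The metallothioneins put the mice in another order, with mouse 1 highest and mouse 6 lowest. Mean Mt1 was 615 FPKM in mouse 1 and 382 FPKM in mouse 6 (r = 0.8 and rho = 0.83 between hemispheres, exact permutation adjusted p = 0.0764 and 0.117, r = 0.91 without mice 1 and 4), and mean Mt2 was 320 and 184 FPKM in the same mice (r = 0.85 and rho = 0.94, exact adjusted p = 0.081 and 0.0417, r = 0.81 without mice 1 and 4). Nr3c1, Sgk1 and Nr3c2 had r of 0.63, 0.57 and 0.19 and rho of 0.71, 0.54 and 0.14, with exact permutation adjusted p of at least 0.17, and without the 2 farthest mice r was 0.85, 0.85 and -0.86. The median r of the 10 genes was 0.83, against 0.38 over all loci tested, with 7 of the 10 in the upper quartile of loci (r above 0.65). The median locus differed 1.24-fold between its highest and lowest mouse, against 1.28-fold for Sgk1, 1.9-fold for Tsc22d3, 1.96-fold for Fkbp5 and 2.36-fold for Hif3a.

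The mouse term of the fit was tested over all loci with limma's F test, also added after the data were seen. It was called at an adjusted p under 0.05 for 6 of the 10 genes, against 1.97% of the loci tested. These were Tsc22d3 (adjusted p = 0.00353), Zbtb16 (0.00928), Fkbp5 (0.0145), Mt2 (0.0258), Mt1 (0.0275) and Klf9 (0.0315). The call was absent for Hif3a (adjusted p = 0.0876), Nr3c1 (0.15), Sgk1 (0.175) and Nr3c2 (0.222). With 1 mouse left out, the count of the 10 genes called was 2 without mouse 2, 3 without mouse 3, 1 without mouse 4, 4 without mouse 6, 5 without mouse 5 and 7 without mouse 1, and the share of all loci called ran from 0.49% to 3.39%. Zbtb16 was called in all 6 of these fits and Tsc22d3 in 5, all but that without mouse 4, while Fkbp5 and Mt2 were called in 3 and Klf9 and Mt1 in 2.

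**Figure D4:**
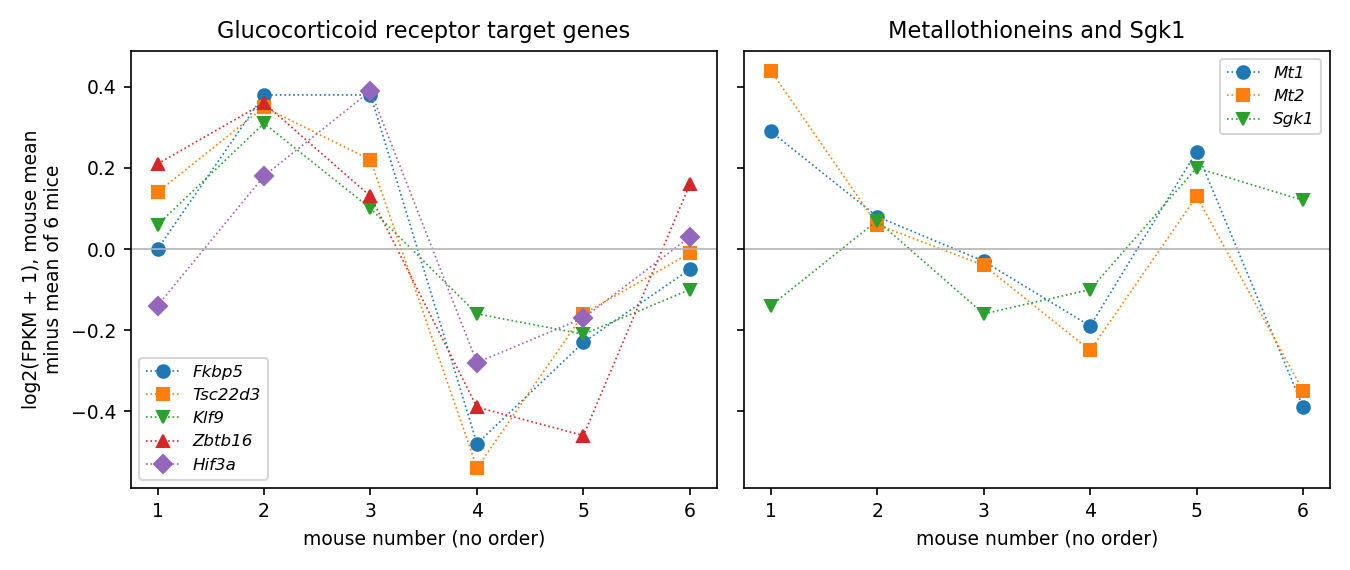
Mean log2(FPKM + 1) of the hemispheres of each mouse minus the mean of the 6 mice (vertical axis) by mouse number, which has no order, for 5 target genes on the left and for Mt1, Mt2 and Sgk1 on the right. On the left, mouse 2 lies above 0 for all 5 genes (0.18 to 0.38) and mouse 4 below 0 (-0.54 to -0.16). On the right, Mt1 and Mt2 are highest in mouse 1 (0.29 and 0.44) and lowest in mouse 6 (-0.39 and -0.35).

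Over the 6 mouse means, the 5 targets other than Sgk1 correlated with each other at r = 0.65 to 0.95 (10 pairs, median 0.84). The same 5 genes correlated with Mt1 and Mt2 at -0.11 to 0.42 (10 pairs, median 0.22) and with Sgk1 at -0.26 to -0.03 (5 pairs). With Nr3c1 they correlated at -0.81 to -0.39 and with Nr3c2 at -0.68 to -0.32, negative for each of the 5. The closest pairs were Fkbp5 with Tsc22d3 (r = 0.95, rho = 0.94) and Mt1 with Mt2 (r = 0.95, rho = 1.0). Of all 45 pairs of the 10 genes, 7 had an unadjusted exact permutation p under 0.05 and 0 passed after adjustment, the smallest adjusted p being 0.125. These correlations are descriptions of 6 animals.

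Depth and cell type markers also varied between mice. Recovered reads averaged 18706172 per library in mouse 1 and 13512031 in mouse 6, with 15168319 and 15210039 in mice 2 and 3 and 13738754 in mouse 4. Between the highest and the lowest mouse, the summed markers differed 1.05-fold for inhibitory neurons, 1.09-fold for excitatory neurons, 1.1-fold for astrocytes, 1.12-fold for oligodendrocytes, 1.18-fold for microglia and for endothelial cells and 1.26-fold for hippocampus. Choroid plexus markers differed 1.41-fold (1.28 to 1.8 FPKM) and blood markers 2.72-fold, from 0.957 FPKM in mouse 6 to 2.6 FPKM in mouse 3. Differences between the mice and between their slice preparations cannot be told apart, and the part of depth and of these markers in the mouse pattern was not tested.

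Genes around the receptors were read from lists of the pathway, which were chosen with earlier results of these data known. The counts called in these lists are therefore descriptions. A gene's place in a list does not name the cause of its change, which was not tested. Of 21 other glucocorticoid-responsive genes tested, 3 rose and none fell, against 1.22% and 0.274% of all loci tested, with a median log2 fold change of 0.114 against 0.0076. Dusp1, a phosphatase that inactivates MAP kinases, rose from 122 ± 20.4 to 208 ± 39.5 FPKM (0.76, limma adjusted p = 1.75e-05). Errfi1, a feedback inhibitor of the EGF receptor, rose from 32.9 ± 2.74 to 48.3 ± 7.46 FPKM (0.53, adjusted p = 0.0081), and Slc2a1, the glucose transporter GLUT1, from 63.5 ± 5.67 to 75.9 ± 4.28 FPKM (0.26, adjusted p = 0.0144). All 3 were higher in 6 of 6 mice, and the other 18 were not called. Dusp1 was called under all 16 alternatives. Errfi1 lost its call with no filter on low values (limma adjusted p = 0.0594), and Slc2a1 without the block (0.0763), with voom on recovered reads (0.0861), and without mouse 3 (0.071) or mouse 4 (0.0852).

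Of 13 genes of the receptor's chaperone complex, 3 rose and none fell, against the same shares of all loci, with a median of 0.132 against 0.0076. Dnajb1, an Hsp40 co-chaperone, rose from 95.7 ± 22.4 to 160 ± 32.7 FPKM (0.75, limma adjusted p = 0.000581). Hspa1a rose from 29.7 ± 9.69 to 39.6 ± 11.2 FPKM (0.42, adjusted p = 0.0324) and Hspa1b from 35.9 ± 13.4 to 47.5 ± 13.2 FPKM (0.45, adjusted p = 0.0428). These Hsp70 genes are near-identical copies that may share reads, and both had an adjusted p of 0.999 in the fit with no block. The count of 3 was 1 under 7 alternatives, among them the fits without mouse 1, 2, 3 or 4, and Dnajb1 was called under all 16. Hspa1a was called under 9 of the 16 and Hspa1b under 6.

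No gene was called in the remaining lists, which held 10 receptor cofactors (median log2 fold change -0.048), 6 tested genes of corticosteroid supply and its control (-0.01), 11 tested paralogs of the members (0.05) and 20 tested genes of zinc handling (0.02). In the supply list 1 gene was called without mouse 3. Hsd11b1, which regenerates active corticosterone, measured 9.17 ± 1.12 and 8.76 ± 1.17 FPKM, and Hsd11b2, which inactivates it, was at most 0.0883 FPKM in any library. Mt3, the brain metallothionein, measured 270 ± 28.6 and 260 ± 24.9 FPKM (-0.05, limma adjusted p = 0.849), and Mt4 was listed at 0 in all 12 libraries. These 4 genes are named after their values were seen.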

How the data were processed

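Poly-A RNA of 6 control and 6 cocktail hemispheres was analysed, paired by the mouse number in the labels. The authors removed ribosomal reads with BWA 0.6.1, aligned the rest to mm10 with TopHat 1.4.1 and deposited FPKM per locus from Cufflinks 1.3.0 with bias correction. Their table of the comparison (HTSeq 0.6.1p1, DESeq2 1.6.3), which holds mean counts, fold changes, p-values and group means, was not used here. Members and lists were chosen with earlier results of these data known.

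Here, log2(FPKM + 1) was fitted with limma 3.58.1 in R 4.3.3 (mouse and treatment, variance trend, mean FPKM of at least 1, Benjamini-Hochberg at 0.05). Single values were tested with exact two-sided sign-flip tests over mice, and hemispheres with exact permutations of 720 orders. Reads were recovered from the Cufflinks intervals, taken as 2 Poisson standard deviations, and 82.8% of 36412 values under 20 reads were whole within 0.05. Hemispheres of the same mouse tended to deviate together (r 0.216 to 0.406, median 0.337). For different mice r ran from -0.42 to 0.445 (30 pairs, median -0.0714), so the ranges overlapped. Alternatives were other pseudocounts, filters and scalings, no block, limma's voom on recovered reads with TMM scaling computed here, and leaving out each mouse. The F test of the mouse term, pairs of members, Sgk1 beside the other members, Nr3c2 beside hippocampal markers and the motif search were added after the data were seen. Genes named are the members, list genes called, and for a called member the 3 loci most like it, and other genes, namely the hippocampal markers, Hsd11b1, Hsd11b2, Mt3 and Mt4, were chosen after their values were seen. Promoter windows are from RefSeq (GRCm38.p6) and exon overlaps from GENCODE M21. Figures were drawn with matplotlib 3.10.9 in Python 3.11.15.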

Additional observations from a re-analysis of the deposited data

Results flagged for a closer look

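Among 36 groups of 6 values (the FPKM of each gene in each condition, within-mouse differences, and the ratios of receptors and metallothioneins), 5 held a value far from the other 5 by Dixon's test of the gap over the range at 95%, and chance would give 1.8. Nr3c1 stood at 20.6 FPKM in the cocktail hemisphere of mouse 4, against 15.8 to 17.5 FPKM in the others. The within-mouse log2 difference of Nr3c1 was 0.431 in mouse 1, against -0.149 to 0.0118 in the others. The log2 ratio of Mt1 to Mt2 in control was 0.84 in mouse 1, against 1.11 to 1.18. The last 2 values involve the control library of mouse 1, which stood apart from the other control libraries over all genes, and the part of that library in them was not tested. The within-mouse difference of Fkbp5 was -0.331 in mouse 5, against 0.0345 to 0.172, and Hif3a was 2.13 FPKM in the control hemisphere of mouse 3, against 0.816 to 1.27 FPKM.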

How the results depend on the processing

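Sgk1 was called under all 16 alternatives (0.449 to 0.55, limma adjusted p 0.000264 to 0.0113), and in each 1 of the 10 genes was called. Without the replicate block 88 loci were called in place of 180, and with each mouse left out 104 to 181 (104 without mouse 4). Apart from this count, those of the chaperone list, Slc2a1, Hspa1a and Hspa1b, the block changed no call named here. The count of the chaperone list was 1 without the block, with no filter and with voom, and 1 to 3 with a mouse left out. That of corticosteroid supply was 0 to 1. The receptor log2 ratio differed by 0.002 on recovered reads and by -0.191 to 0.102 with a mouse left out, and the metallothionein log2 ratio by -0.061 and by -0.032 to 0.037. Signs turned for Mt1 under quantile normalization (-0.006), Nr3c1 (-0.051) and Fkbp5 (-0.003) without mouse 1 and Nr3c2 (-0.038) without mouse 6, with ranges of -0.051 to 0.065, -0.003 to 0.097 and -0.038 to 0.238 over the mice left out. With a mouse left out, r between hemispheres was 0.48 to 0.89 for Nr3c1, -0.55 to 0.54 for Nr3c2, 0.34 to 0.91 for Sgk1, 0.82 to 0.99 for Fkbp5, 0.77 to 0.89 for Mt1 and 0.78 to 0.95 for Mt2. The mouse term was called for 1 to 7 of the 10 genes, with 2.0 without mouse 2, 3.0 without mouse 3 and 1.0 without mouse 4. The causes of these changes were not tested, and each fit with a mouse left out also has fewer mice. Hif3a has no value at a mean FPKM of at least 5. Hif3a rests on 48 to 182 reads per library and Nr3c2 on 228 to 712, and Nr3c2 has the larger standard error (0.146 against 0.0814).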
